A study of Mus musculus with 18 samples.

Results

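MHC class I molecules carry peptides cut from a cell's own proteins to the cell surface, and 10 genes of this route were followed here: Tap1 and Tap2, which encode the peptide transporter, Tapbp (tapasin, which joins the transporter to empty class I molecules), B2m (the class I light chain), Psmb8, Psmb9 and Psmb10 (the catalytic subunits of the immunoproteasome), Psme1 and Psme2 (the proteasome activator PA28) and Nlrc5 (a transactivator of class I genes). They were taken by gene symbol from the annotation of the array. Of the 10 genes, 9 had a probe set of their own, and together these had 15 of the 45101 probe sets. Psme2 was on the array only through a probe set that the annotation also gives to Psme2b, so no value is given for it. All 9 genes lay above the filter on low values (4.06 on the log2 scale) on all 18 arrays, and they were tested among 13770 genes.

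The study measured gene expression in CD8 T cells of C57Bl/6 mice that carry the F5 T cell receptor transgene, whose receptor recognises NP68, a peptide of influenza virus nucleoprotein. Flow cytometry was used to isolate both naive and memory cells from the spleen. The memory cells, called TIM in the labels, arose after 2 immunisations with NP68 and were analysed at day 45. Cells were measured ex vivo or after 20 hours of culture in medium, with IL-4 (20 ng/mL), IL-7 (10 ng/mL) or both, and the design asks what IL-4 does to each cell type. The groups were memory cells with IL-4 and IL-7, memory cells with IL-7, memory cells with IL-4, memory cells in medium without cytokine, and naive cells with IL-4 and IL-7, naive cells with IL-7 and naive cells ex vivo (2 arrays each), and memory cells ex vivo (4 arrays). All cells had the same transgenic receptor, and every sample came from a single mouse strain. A source field also calls the naive cells memory cells, and the titles, which call them naive, were followed. The labels do not say how many mice were pooled for an array, which markers defined the sort, or whether cultured arrays came from separate mice; only the ex vivo arrays are titled biological replicates. The p-values measure only the spread between these arrays, which may be technical.

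Proteasomes cut proteins in the cytosol, the Tap1 and Tap2 transporter moves the fragments into the endoplasmic reticulum, and tapasin holds class I molecules there until a peptide binds. The constitutive catalytic subunits Psmb5, Psmb6 and Psmb7 are replaced by Psmb8, Psmb9 and Psmb10 when the immunoproteasome is assembled, which lymphocytes do constitutively and other cells do mainly after exposure to interferon. Interferon factors bind GAAA repeats, most STAT dimers bind TTC and GAA separated by 3 bases, and STAT6, the factor downstream of the IL-4 receptor, is known for binding the form with 4 bases between them.

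Promoter windows (250 bases before to 50 bases from the transcription start, RefSeq, build GRCm38.p6) were found for 8 of the 10 genes. Tap2 and Nlrc5 were not among them. The windows of Tap1 (chr17:34187306-34187605, plus strand) and Psmb9 (chr17:34187281-34187580, minus strand) share 275 identical bases, the 2 starts being 226 bases apart on opposite strands. The window of Tap1 is shown because Psmb9 shares it. The windows of Psmb10 (chr8:105938343-105938642, minus strand) and Psmb8 (chr17:34197945-34198244, plus strand) are shown for their STAT-type matches, and that of B2m (chr2:122147437-122147736, plus strand) for its interferon-type match. These motifs were searched on both strands, and capitals mark their matches: GAAA followed by GAAA after any 2 bases (interferon type), TTC followed by GAA after any 3 bases (the general STAT form) and TTC followed by GAA after any 4 bases (the STAT6 form).

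Tap1: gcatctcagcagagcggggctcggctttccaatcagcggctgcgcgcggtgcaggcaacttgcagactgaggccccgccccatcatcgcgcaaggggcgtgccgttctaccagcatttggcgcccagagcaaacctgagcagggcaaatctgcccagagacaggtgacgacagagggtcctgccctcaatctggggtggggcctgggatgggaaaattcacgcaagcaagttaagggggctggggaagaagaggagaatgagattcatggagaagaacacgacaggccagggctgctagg

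Psmb10: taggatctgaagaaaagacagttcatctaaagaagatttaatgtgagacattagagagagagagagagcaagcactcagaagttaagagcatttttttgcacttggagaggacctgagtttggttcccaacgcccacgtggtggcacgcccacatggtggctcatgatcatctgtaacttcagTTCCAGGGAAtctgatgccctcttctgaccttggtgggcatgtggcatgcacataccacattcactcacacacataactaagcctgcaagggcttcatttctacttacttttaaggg

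Psmb8: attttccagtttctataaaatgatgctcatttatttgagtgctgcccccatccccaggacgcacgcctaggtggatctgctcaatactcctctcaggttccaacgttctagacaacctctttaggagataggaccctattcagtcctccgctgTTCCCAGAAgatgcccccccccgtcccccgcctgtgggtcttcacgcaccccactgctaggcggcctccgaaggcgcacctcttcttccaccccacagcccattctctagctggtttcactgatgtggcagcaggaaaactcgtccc

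B2m: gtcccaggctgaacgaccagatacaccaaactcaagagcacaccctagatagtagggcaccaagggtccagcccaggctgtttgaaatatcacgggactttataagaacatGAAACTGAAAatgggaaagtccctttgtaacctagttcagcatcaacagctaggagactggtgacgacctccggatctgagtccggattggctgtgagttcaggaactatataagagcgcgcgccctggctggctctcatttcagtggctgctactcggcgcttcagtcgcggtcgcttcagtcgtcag

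The interferon-type motif was found in the windows of 2 of the 8 genes, B2m and Psme1, and in 3.44% of all 32851 mouse windows of this length. The general STAT form was found in that of Psmb8, as TTCCCAGAA 97 bases before the start, and in 8.3% of all windows. The STAT6 form was found in that of Psmb10, as TTCCAGGGAA 67 bases before the start, and in 6.95% of all windows. The Tap1 and Psmb9 windows held none of the 3. Looser motifs were common everywhere: CCAAT stood in 4 of the 8 windows (37.4% of all), TGACG in 4 (20.8% of all) and GGG followed by CC after any 5 bases in 5 (50.8% of all). The matches of Tap1 and Psmb9 to these looser motifs lie in the bases they share. They are the same sites, counted once for each window. A match describes the letters only, and binding was not measured.

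The deposited values are log2 values of Affymetrix probe sets, with array medians between 4.62 and 4.76. The summed level of the CD8 T cell markers (the log2 of their summed linear values, 6 of 8 listed genes on the array) was 14.6 to 15.1 on all arrays, and that of the memory CD8 markers was 13.0 to 13.7 in memory arrays, against 7.96 to 9.96 in naive arrays. Group means of Cxcr3, Ccl5 and Cd44 were higher in all memory groups than in all naive groups. Those of Il2rb (6.79 to 8.78 in memory, 6.23 to 8.10 in naive groups) and Eomes (6.97 to 9.33 and 5.76 to 8.17) overlapped. The summed level of the naive CD8 markers did not separate the cells, at 13.1 to 13.7 in memory arrays and 13.0 to 13.9 in naive arrays. Arrays of 2 groups stood apart. Memory in medium array 2 was most like memory ex vivo array 2, with an SD of 0.239 for the log2 difference across genes, against 0.742 between both medium arrays. The same SD was 0.572 between both arrays of naive cells with IL-4 and IL-7. IL-4 changes that move most with these arrays are given with and without them. In RNA from bulk samples, fewer cells of a type and less RNA per cell cannot be told apart.

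With IL-7 present, IL-4 raised in memory cells Tap1 1.99-fold and Psmb10 2.05-fold. These were 2 of the 9 members tested, both higher, where 1.81% of all genes were called in either direction, 1.21% higher and 0.595% lower. The other 7 members did not pass the test, and their log2 changes ran from -0.02 (B2m) to 0.74 (Psme1). The median log2 change was 0.55 over the 9 members and 0.08 over all genes tested. On the arrays with IL-4, 6 of the 9 members lay above both arrays without it and 0 below, against 34.3% and 21.5% of all genes. Both calls were lost at 3 of the 4 arrays left out in turn. Tap1 was no longer called without any one of the 4 arrays compared, at log2 changes of 0.84 (adjusted p = 0.312) to 1.15 (adjusted p = 0.0962). Psmb10 stayed past the test without memory IL-7 array 2 and was lost without any other, at 0.79 (adjusted p = 0.277, without memory IL-7 array 1) to 1.06 (adjusted p = 0.121).

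In memory cells without IL-7, IL-4 against medium called 0 of the 9 members with limma, where 1.94% of all genes were called (1.26% higher, 0.675% lower). An unadjusted p under 0.05 was found for 6 members and for 1848 of the 13770 genes tested. The log2 changes were positive for 9 of 9 members, from 0.15 (B2m) to 0.75 (Tap1), and for 8118 of all genes tested. The median log2 change was 0.60 over the members, against 0.06 over all genes tested. Of the 9 members, 8 had both arrays with IL-4 above both arrays in medium and 0 had them below, against 20.6% and 13.7% of all genes. In naive cells with IL-7, IL-4 called 0 of 9 with limma (1.26% of all genes, 0.879% higher and 0.378% lower). There 1 member and 1202 of all genes tested had an unadjusted p under 0.05. The median log2 change was 0.10 against -0.00 over all genes, and 3 members had both arrays with IL-4 above both without it and 0 below (19.3% and 16.9% of all genes). The plot of IL-4 changes shows all 27 values with their 95% intervals.

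**Figure D1:**
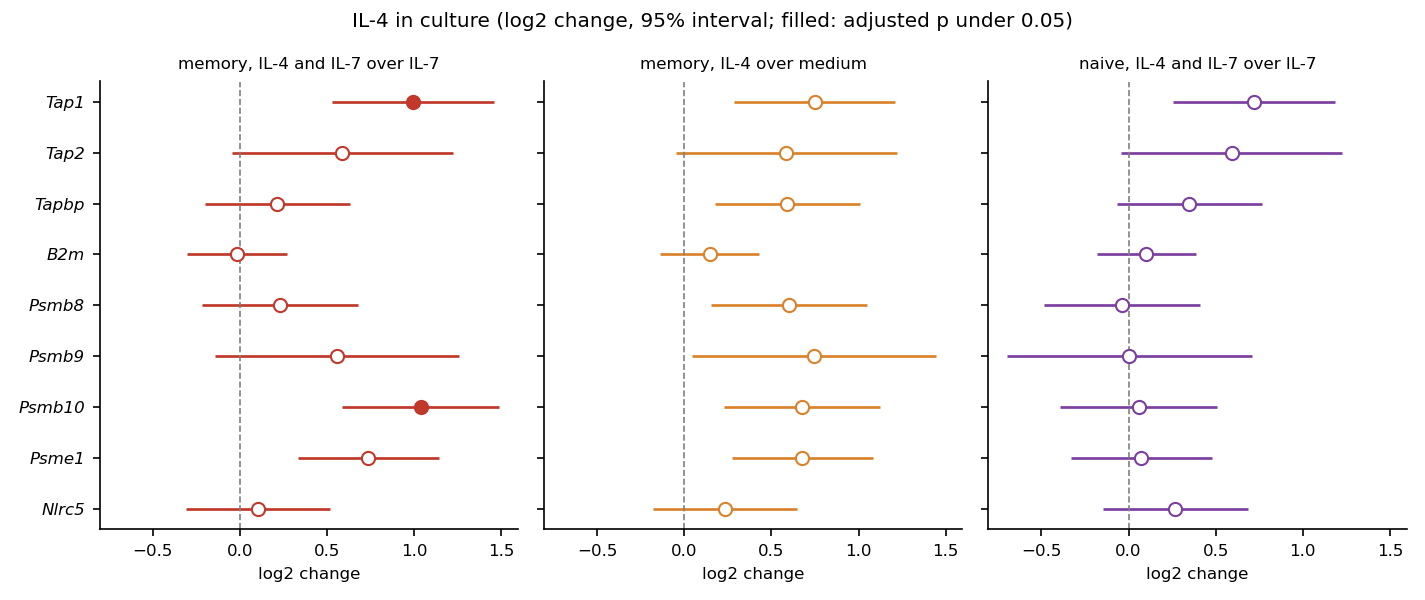
Log2 change of the 9 genes with IL-4 (x axis, log2 units; bars, 95% intervals of the fit over 18 arrays) in memory cells with IL-7, memory cells without IL-7 and naive cells with IL-7, 2 arrays a group. Filled points passed an adjusted p under 0.05: Tap1 at 0.99 and Psmb10 at 1.04 in the left panel. In the right panel Psmb8, Psmb9, Psmb10 and Psme1 lie between -0.04 and 0.07.

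Tap1, one chain of the transporter, read 11.53 and 11.33 on the log2 scale in memory cells with IL-4 and IL-7, against 10.28 and 10.59 in memory cells with IL-7. It read 10.95 and 11.19 in memory cells with IL-4, against 10.50 and 10.14 in medium. In naive cells it read 11.45 and 10.92 with both cytokines, against 10.25 and 10.68 with IL-7. None of the 3 pairs of groups overlapped: all 6 arrays with IL-4 lay above all 12 arrays without it, of which the highest read 10.68. Tap1 was the single member with that separation, which 1.5% of all genes tested showed. The pattern was looked for after the values were seen. No member had the 6 arrays below the others (0.428% of all genes). The log2 changes were 0.99 ± 0.22 in memory cells with IL-7 (SE, adjusted p = 0.0312), 0.75 ± 0.22 without IL-7 (adjusted p = 0.112) and 0.72 ± 0.22 in naive cells (adjusted p = 0.181). Each group had 2 arrays, and the fit took its spread from all 18.

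The order of the Tap1 group means was memory with both cytokines (11.43), naive with both (11.19) and memory with IL-4 (11.07), whose ranges overlap from one to the next, then naive with IL-7 (10.46), memory with IL-7 (10.43), memory in medium (10.32) and memory ex vivo (10.25), which also overlap in turn, and last naive ex vivo (9.89), below all others. The 3 further Tap1 probe sets were under the filter value on all 18 arrays and were not used. Without memory in medium array 1, the IL-4 change without IL-7 was 0.93 (adjusted p = 0.0222), and without medium array 2 it was 0.57 (adjusted p = 0.541). Without array 2 of naive cells with both cytokines, the change in naive cells was 0.99 (adjusted p = 0.0326), and without array 1 it was 0.46 (adjusted p = 0.931).

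Tap2, the other chain, had nearly the same log2 change in all 3 comparisons and did not pass the test. It read 11.80 and 11.94 in memory cells with IL-4 and IL-7, against 11.06 and 11.51 with IL-7. It read 11.63 and 11.88 in memory cells with IL-4, against 11.44 and 10.91 in medium. In both comparisons the arrays with IL-4 lay above those without. Its values in naive cells were 12.40 and 11.24 with both cytokines, against 11.19 and 11.28 with IL-7, so the groups overlapped and array 1 with IL-4 carried the difference. The log2 changes were 0.59 in each, with adjusted p of 0.393, 0.42 and 0.62, and the naive value was 1.17 (adjusted p = 0.0195) without array 2 and 0.01 (adjusted p = 0.999) without array 1 of the naive cells with both cytokines. Without medium array 1 the change in memory cells without IL-7 was 0.85 (adjusted p = 0.111), and without medium array 2 it was 0.32 (adjusted p = 0.999).

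Tapbp, which bridges the transporter and the class I molecule, read 13.50 and 12.88 in memory cells with IL-4 and IL-7, against 12.93 and 13.02 with IL-7. It read 13.49 and 13.34 in memory cells with IL-4, against 12.89 and 12.77 in medium. In naive cells it read 13.31 and 13.36 with both cytokines, against 13.00 and 12.97 with IL-7. The groups did not overlap in memory cells without IL-7 or in naive cells, and overlapped in memory cells with IL-7, and the log2 changes were 0.21, 0.59 and 0.35 (adjusted p of 0.65, 0.174 and 0.682). A second, dimmer Tapbp probe set gave 1.08 (adjusted p = 0.0615), 0.18 (adjusted p = 0.843) and 0.20 (adjusted p = 0.923), so the 2 probe sets of this gene differ in which memory comparison has the larger change.

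B2m, the light chain of every class I molecule, had the smallest range of the 9 members. Its values spanned 13.88 to 14.24 over the 18 arrays, and its IL-4 log2 changes were -0.02, 0.15 and 0.10 (adjusted p of 0.967, 0.716 and 0.912). A second B2m probe set gave log2 changes of -0.04, 0.24 and 0.13, none past the test.

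**Figure D2:**
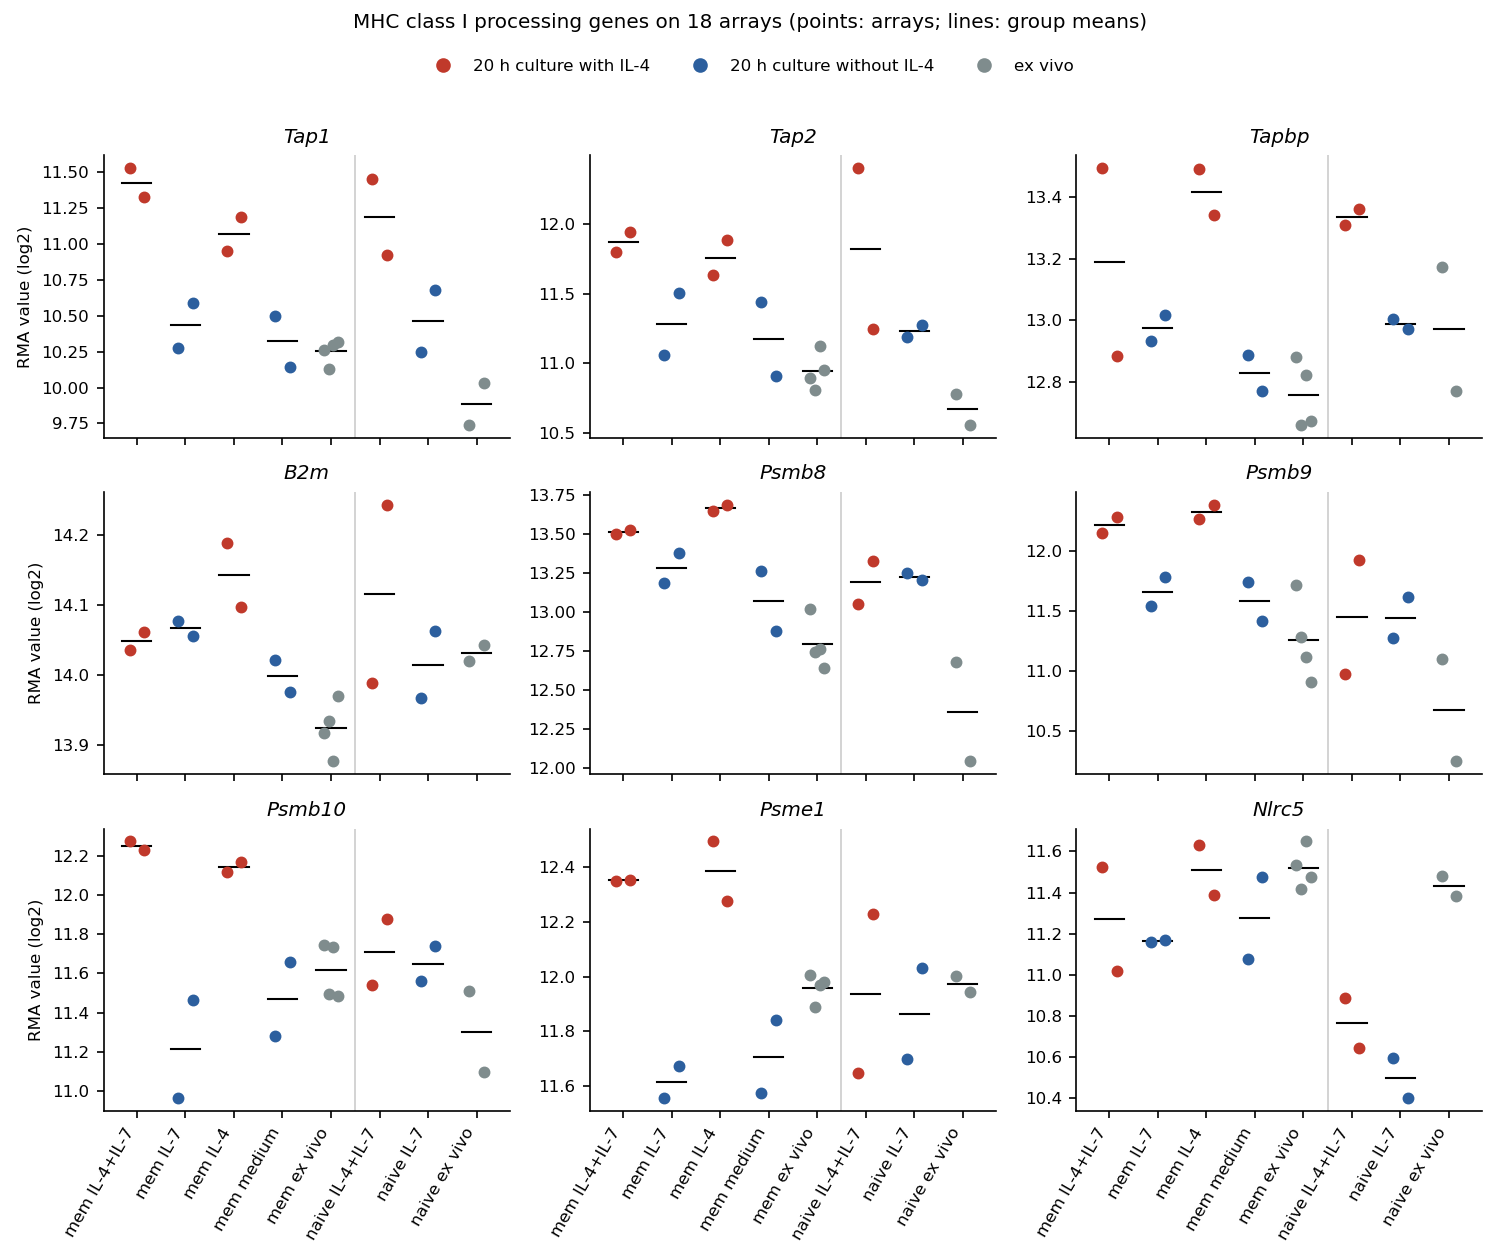
RMA values (y axis, log2, scaled for each gene) of the 9 genes on the 18 arrays; points are arrays, lines are group means, and the x axis gives the 8 groups with memory groups left of the grey line. The 6 Tap1 points with IL-4 (red) lie above 10.68, the highest of the other 12, and the 4 Psmb10 points of memory cells with IL-4 lie between 12.12 and 12.27.

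Psmb10, the immunoproteasome subunit that replaces Psmb7, had its 4 highest values in memory cells with IL-4. It read 12.27 and 12.23 in memory cells with IL-4 and IL-7, against 10.96 and 11.46 with IL-7. It read 12.12 and 12.17 in memory cells with IL-4, against 11.28 and 11.66 in medium. Its values in naive cells were 11.54 and 11.88 with both cytokines, against 11.56 and 11.74 with IL-7. The 2 pairs of memory groups did not overlap, and the naive pair did. The log2 changes were 1.04 ± 0.21 (SE, adjusted p = 0.0206) in memory cells with IL-7, 0.67 ± 0.21 (adjusted p = 0.146) without IL-7 and 0.06 ± 0.21 (adjusted p = 0.973) in naive cells. The second was 0.49 without medium array 1 and 0.86 without medium array 2, and the third was 0.23 without array 1 and -0.11 without array 2 of naive cells with both cytokines, none past the test.

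Psmb9, which replaces Psmb6, read 12.15 and 12.28 in memory cells with IL-4 and IL-7, against 11.54 and 11.78 with IL-7. It read 12.26 and 12.38 in memory cells with IL-4, against 11.74 and 11.42 in medium. In naive cells it read 10.98 and 11.92 with both cytokines, against 11.27 and 11.61 with IL-7. Again the memory groups did not overlap, while the naive arrays without IL-4 lay between the 2 with it. The log2 changes were 0.55, 0.74 and 0.00, with SE of 0.33 and adjusted p of 0.467, 0.335 and 0.999. The naive value was 0.48 without array 1 of naive cells with both cytokines and -0.47 without array 2, so its sign depends on the array. The value without IL-7 was 0.91 without medium array 1 and 0.58 without medium array 2, and none of these passed the test.

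Psmb8, which replaces Psmb5, read 13.50 and 13.53 in memory cells with IL-4 and IL-7, against 13.19 and 13.38 with IL-7. It read 13.65 and 13.69 in memory cells with IL-4, against 13.26 and 12.88 in medium. Its values in naive cells were 13.05 and 13.33 with both cytokines, against 13.25 and 13.21 with IL-7. On a second, dimmer Psmb8 probe set the log2 changes were 0.55, 0.85 and 0.02 (adjusted p of 0.364, 0.156 and 0.991). On the first, the memory groups stood apart and the naive groups overlapped, with log2 changes of 0.23, 0.60 and -0.04 (adjusted p of 0.653, 0.204 and 0.983). Without memory in medium array 1 the change without IL-7 was 0.79 (adjusted p = 0.0372), and without array 2 it was 0.40 (adjusted p = 0.782).

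Psme1, the alpha subunit of PA28, also had its 4 highest values there. It read 12.35 and 12.35 in memory cells with IL-4 and IL-7, against 11.56 and 11.67 with IL-7. It read 12.49 and 12.28 in memory cells with IL-4, against 11.57 and 11.84 in medium. In naive cells it read 11.65 and 12.23 with both cytokines, against 11.70 and 12.03 with IL-7. The memory groups did not overlap and the naive groups did. The log2 changes were 0.74 ± 0.19 (SE, adjusted p = 0.0659), 0.68 ± 0.19 (adjusted p = 0.0957) and 0.07 ± 0.19 (adjusted p = 0.963), and the first was called at adjusted p of 0.00689 with array weights and of 0.0268 in a fit of the groups compared. The second was 0.54 without medium array 1 and 0.81 without medium array 2, and the third was 0.36 without array 1 and -0.22 without array 2 of naive cells with both cytokines, none past the test.

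Psmb8, Psmb9, Psmb10 and Psme1 shared a pattern that was looked for after their values were seen. On each, the 4 memory arrays with IL-4 lay above all other 14 arrays, ex vivo and naive arrays included: from 13.50 against a highest other value of 13.38 for Psmb8, from 12.15 against 11.92 for Psmb9, from 12.12 against 11.88 for Psmb10 and from 12.28 against 12.23 for Psme1. This held for 4 of the 9 members and for 1.34% of all genes tested, and the 4 arrays lay below the others for 0 members and 1.11% of all genes. The order of their group means was accordingly led by memory cells with IL-4, with or without IL-7. For Psmb10 the means were 12.25 with both cytokines and 12.14 with IL-4, then 11.71 and 11.65 in naive cells with both cytokines and with IL-7, 11.62 in memory ex vivo, 11.47 in medium, 11.30 in naive ex vivo and 11.21 in memory with IL-7, and these last 6 overlap from one to the next. For Psme1 the 6 other groups had means from 11.62 (memory with IL-7) to 11.97 (naive ex vivo).

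Nlrc5, the class I transactivator, did not pass the test with IL-4. It read 11.52 and 11.02 in memory cells with IL-4 and IL-7, against 11.16 and 11.17 with IL-7. It read 11.63 and 11.39 in memory cells with IL-4, against 11.08 and 11.48 in medium. Its values in naive cells were 10.89 and 10.64 with both cytokines, against 10.60 and 10.40 with IL-7. The groups overlapped in both memory comparisons and not in the naive one, and the log2 changes were 0.10, 0.24 and 0.27 (adjusted p of 0.835, 0.668 and 0.779). The second was 0.03 without medium array 1 and 0.44 without medium array 2, and the third 0.15 and 0.39 without array 1 and array 2 of naive cells with both cytokines, none past the test. Its order of group means ran from memory ex vivo (11.52), memory with IL-4 (11.51) and naive ex vivo (11.43) to naive with both cytokines (10.77) and naive with IL-7 (10.50), and the last 2 groups overlapped neither each other nor any other group.

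Whether the response to IL-4 differed between memory and naive cells was tested as the difference of the 2 log2 changes with IL-7. The differences, memory minus naive, were 0.98 ± 0.30 for Psmb10 (SE, adjusted p = 0.333), 0.66 ± 0.27 for Psme1 (adjusted p = 0.462) and 0.55 ± 0.46 for Psmb9 (adjusted p = 0.681). For Tap1 the difference was 0.27 ± 0.31 (adjusted p = 0.77) and for Tap2 -0.01 ± 0.42 (adjusted p = 0.997), with 95% intervals of -0.39 to 0.93 and -0.90 to 0.89. With limma 0 of 9 members were called, where 0.0726% of all genes were (0.0436% higher, 0.029% lower), so the difference between cell types did not pass the test for any member. An unadjusted p under 0.05 was found for 2 members and for 1386 of the 13770 genes tested. The median difference was 0.27 over the 9 members and 0.08 over all genes tested. It was 0.82 over the 3 constitutive catalytic subunits, 0.61 over 11 other 20S proteasome subunits and 0.62 over 8 assembly factors and other activators. Of these, 2, 4 and 4 had an unadjusted p under 0.05. It was 0.20 over the 19S regulatory particle, -0.12 over other loading and trimming genes and -0.22 over class I heavy chains. Differences of this size were not particular to the members. Without array 2 of the naive cells with both cytokines the differences were 1.15 for Psmb10 (adjusted p = 0.0804) and 0.95 for Psme1 (adjusted p = 0.0599), and without array 1 they were 0.81 (adjusted p = 0.646) and 0.37 (adjusted p = 0.77). The difference of the IL-4 responses of memory cells with and without IL-7 called 0 of 9 members (0% of all genes), with 0 at an unadjusted p under 0.05 (650 of all genes tested), and ran from -0.38 (Tapbp) to 0.36 (Psmb10). These comparisons share arrays with the ones they are made of.

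The other proteins of the route are the heavy chains, the remaining proteasome subunits and the loading and trimming factors. In memory cells with IL-7, none of the 9 class I heavy chain genes tested was called by limma, with 1 at an unadjusted p under 0.05 (median log2 change 0.12), nor any of 11 other 20S proteasome subunits (3 unadjusted, median 0.41), of 19 genes of the 19S regulatory particle (6 unadjusted, 0.26) or of 10 other loading and trimming genes (5 unadjusted, 0.12). None of 8 proteasome assembly factors and other activators was called there either (1 unadjusted, median 0.48). Over all 13770 genes tested, 1953 had an unadjusted p under 0.05 there (median 0.08). The constitutive catalytic subunits Psmb5, Psmb6 and Psmb7 had log2 changes of 0.47, 0.55 and -0.21 (adjusted p of 0.361, 0.453 and 0.794). In naive cells with IL-7 the changes were -0.35, -0.54 and -0.30 (adjusted p of 0.743, 0.705 and 0.873), and 1 of the 11 other 20S subunits had a positive change (median -0.23). The same was true of 1 of the 8 assembly factors and activators (median -0.36). In memory cells without IL-7 the 3 subunits had log2 changes of 0.62, -0.02 and 0.36 (adjusted p of 0.218, 0.986 and 0.701), and 11 of 11 other 20S subunits had positive changes (median 0.24). So had 8 of 8 assembly factors and activators (median 0.23). Of the 13770 genes tested, 6814 had positive changes in naive cells and 8118 in memory cells without IL-7. The one heavy chain gene called with IL-4 was H2-Q2, a class Ib gene of the Q region, in naive cells, with means of 5.34 with both cytokines against 2.93 with IL-7 (adjusted p = 6.72e-05). It passed the filter only through the naive arrays with both cytokines, so this adjusted p is no independent support for a rise. Set against the filter value of 4.06, H2-Q2 was at least 2.42-fold higher there.

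Within the 8 lists of the route, interferon signalling genes made up 8 of the 9 calls with IL-4 outside the members. Given IL-7, memory cells had 4 of the 16 tested higher with IL-4: Irf7 by 2.24 (log2, adjusted p = 0.00375) and Irf9 by 1.70 (adjusted p = 0.0372), both interferon regulatory factors, Stat2, their signalling partner, by 1.90 (adjusted p = 0.00374), and the feedback inhibitor Socs1 by 1.60 (adjusted p = 0.0132). In memory cells without IL-7, Stat2 (1.74, adjusted p = 0.00678) and Socs1 (1.46, adjusted p = 0.0229) were higher, and in naive cells Irf7 (2.05, adjusted p = 0.00893) and Stat2 (1.42, adjusted p = 0.0362). Of all genes tested, 1.21%, 1.26% and 0.879% were called higher in these 3 comparisons. Irf1, a direct activator of class I processing genes, had log2 changes of 1.10 (adjusted p = 0.0759), 0.61 (adjusted p = 0.389) and 0.60 (adjusted p = 0.605) in the same 3 comparisons. The list did not rise as a whole: 9, 8 and 12 of the 16 genes had positive changes (medians 0.32, 0.07 and 0.23). Of all 13770 genes tested, 8292, 8118 and 6814 had positive changes. Without IL-7, the changes were -1.64 for Ifngr2, -0.78 for Ifnar1 and -0.62 for Ifnar2 (adjusted p of 0.216, 0.3075 and 0.254). The genes of the enhanceosome that works with Nlrc5 at class I promoters gave 0 calls of 8 by limma in each of the 3, with 1, 0 and 0 at an unadjusted p under 0.05 (1953, 1848 and 1202 of the 13770 genes tested). The summed level of 6 MHC class II markers on the array moved with IL-4, at 13.1 to 13.5 on arrays with IL-4, against 10.1 to 11.1 on arrays without. H2-DMa, which was 13.2 to 13.4 in group means with IL-4, made up nearly all of that sum, while the group means of the other 5 ran from 4.44 to 4.81 for Ciita, 4.12 to 4.82 for H2-Ab1, 3.54 to 6.26 for H2-Aa, 5.03 to 6.19 for H2-Eb1 and 6.12 to 8.04 for Cd74. The part of such cells in the members' changes was not tested.

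**Figure D3:**
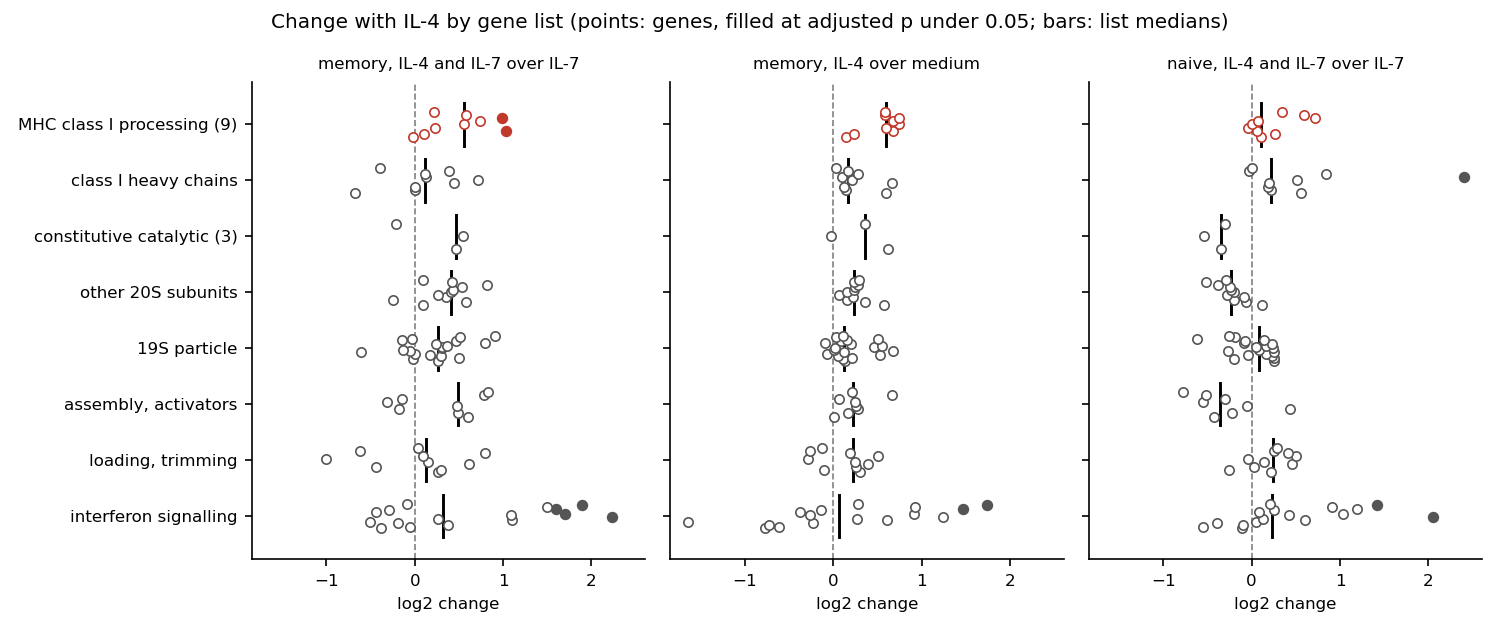
Log2 change with IL-4 (x axis) of each tested gene in 8 lists of the class I route, in memory cells with IL-7, memory cells without IL-7 and naive cells with IL-7; points are genes, filled where the adjusted p was under 0.05, and black bars are list medians. The 9 MHC class I processing genes (red) have medians of 0.55, 0.60 and 0.10, and the interferon signalling genes hold 4, 2 and 2 filled points.

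No member passed the test for IL-7 by itself. Against medium in memory cells, limma called 0 of 9 members and 0% of all genes, 0 members had an unadjusted p under 0.05 (804 of the 13770 genes tested), and the log2 changes ran from -0.25 (Psmb10) to 0.21 (Psmb8). Above the medium arrays without overlap lay 2 members and below them 0, against 10.7% and 18.2% of all genes. Medium array 1 was most like memory IL-7 array 1 (SD of 0.228 for the log2 difference across genes, against 0.742 between both medium arrays). Without it the log2 changes ran from -0.44 (Psmb10) to 0.41 (Psmb8), and without medium array 2 from -0.16 (Tap2) to 0.09 (Nlrc5). Memory cells in medium against memory cells ex vivo also gave 0 of 9 members and 0% of all genes, with 0 members at an unadjusted p under 0.05 (1364 of all genes tested). Without overlap, 1 member lay above and 1 below the ex vivo arrays, against 4.32% and 8.66% of all genes. The log2 changes there ran from -0.25 (Psme1) to 0.32 (Psmb9), and without medium array 2, which resembled an ex vivo array, from -0.44 (Nlrc5) to 0.49 (Tap2). Leaving out medium array 1 instead gave -0.12 (Psme1) to 0.16 (Psmb9).

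In naive cells, culture with IL-7 raised one member and lowered another. Against naive cells ex vivo, 2 of 9 members were called, where 12.8% of all genes were (7% higher, 5.8% lower): Psmb8 was 1.83-fold higher and Nlrc5 1.91-fold lower. Psmb8 read 13.25 and 13.21 in naive cells with IL-7, against 12.68 and 12.04 ex vivo, a log2 change of 0.87 ± 0.21 (SE, adjusted p = 0.0176). Its second, dimmer probe set gave 0.73 and did not pass the test (adjusted p = 0.087). Nlrc5 read 10.60 and 10.40 in naive cells with IL-7, against 11.48 and 11.38 ex vivo, a log2 change of -0.93 ± 0.19 (adjusted p = 0.00891). Neither gene's groups overlapped. Psmb8 lost its call without naive ex vivo array 2 (0.55, adjusted p = 0.184) and without either naive IL-7 array (0.85 and 0.89, adjusted p of 0.0818 and 0.104). Nlrc5 lost it without either naive ex vivo array (-0.89 and -0.98, adjusted p of 0.0515 and 0.0525) and without naive IL-7 array 2 (-0.84, adjusted p = 0.095). The 4 arrays of cultured naive cells, with or without IL-4, read 10.40 to 10.89 for Nlrc5 and lay below all other 14 arrays, which read 11.02 to 11.65. Nlrc5 was the single member with that pattern, which was looked for after its values were seen and which 0.813% of all genes tested showed. The opposite pattern, the 4 arrays above the others, held for 0 members and 1.95% of all genes.

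In the same comparison the log2 change was 0.58 for Tap1 (adjusted p = 0.0958), 0.77 for Psmb9 (adjusted p = 0.141) and 0.56 for Tap2 (adjusted p = 0.248), and 5 members lay above and 1 below the ex vivo arrays without overlap, against 35.4% and 22.6% of all genes. Of the other genes of the route, Psmb5, the constitutive counterpart of Psmb8, rose with it (0.91, adjusted p = 0.0193), as did Psmd13 of the 19S particle (0.75, adjusted p = 0.0126), the assembly factor Psmg3 (1.58, adjusted p = 0.0228), the class Ib gene H2-M3 (0.77, adjusted p = 0.0379) and Socs1 (1.05, adjusted p = 0.0362). Irf7 fell by 1.67 (adjusted p = 0.0101) and the peptidase gene Tpp2 fell by 0.96 (adjusted p = 0.0328). The Gapdh 3' minus 5' signal difference, a measure of how far the labelled RNA reaches toward the 5' end, was 2.67 to 3.36 (log2) on cultured arrays other than memory in medium array 2 (2.35), against 2.07 to 2.69 on ex vivo arrays. The same difference for Actb was 1.64 and 1.63 in naive cells with IL-7, against 1.95 and 2.06 ex vivo. It was 2.09 and 1.99 in naive cells with IL-4 and IL-7. The part of these differences in the culture results and in the IL-4 comparison of naive cells was not tested.

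In memory cells with IL-7 against memory cells ex vivo, limma called 0 of 9 members, where 19.9% of all genes were called (11.1% higher, 8.85% lower). Here 2 members and 4722 of the 13770 genes tested had an unadjusted p under 0.05. Psmb8 read 13.19 and 13.38 in memory cells with IL-7, against 13.02, 12.74, 12.76 and 12.64 ex vivo, a log2 change of 0.49 ± 0.18 (SE, adjusted p = 0.069). The log2 change was -0.40 for Psmb10, -0.35 for Nlrc5 and -0.34 for Psme1 (adjusted p of 0.133, 0.152 and 0.153). For Psmb8 the groups did not overlap, and the same holds for 3 members above and 3 below the ex vivo arrays in all, against 25.5% and 25.2% of all genes. The second Psmb8 probe set rose by 0.72 (adjusted p = 0.039). Whether Nlrc5 or Psmb8 responded to culture differently in naive and memory cells was not tested.

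In that comparison 5 of 16 interferon signalling genes were called lower, against 8.85% of all genes. Ifng, the gene of interferon gamma, fell by 2.21 (log2, adjusted p = 0.0113), Socs3 fell by 1.88 (adjusted p = 0.0294), Irf7 fell by 1.52 (adjusted p = 0.00721), Irf9 fell by 1.39 (adjusted p = 0.0131) and Irf1 fell by 1.25 (adjusted p = 0.00725). The trimming peptidase Erap1 fell by 0.58 (adjusted p = 0.0302), the 19S gene Psmd12 fell by 0.71 (adjusted p = 0.0209) and the class Ib gene H2-Q10 fell by 1.07 (adjusted p = 0.0231). Cd1d1, a lipid-presenting relative of class I, rose by 1.06 (adjusted p = 0.0121), and Creb1, a factor of the class I enhanceosome, rose by 1.11 (adjusted p = 0.0202). Among the constitutive catalytic subunits none was called, with log2 changes from -0.06 to 0.20.

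**Figure D4:**
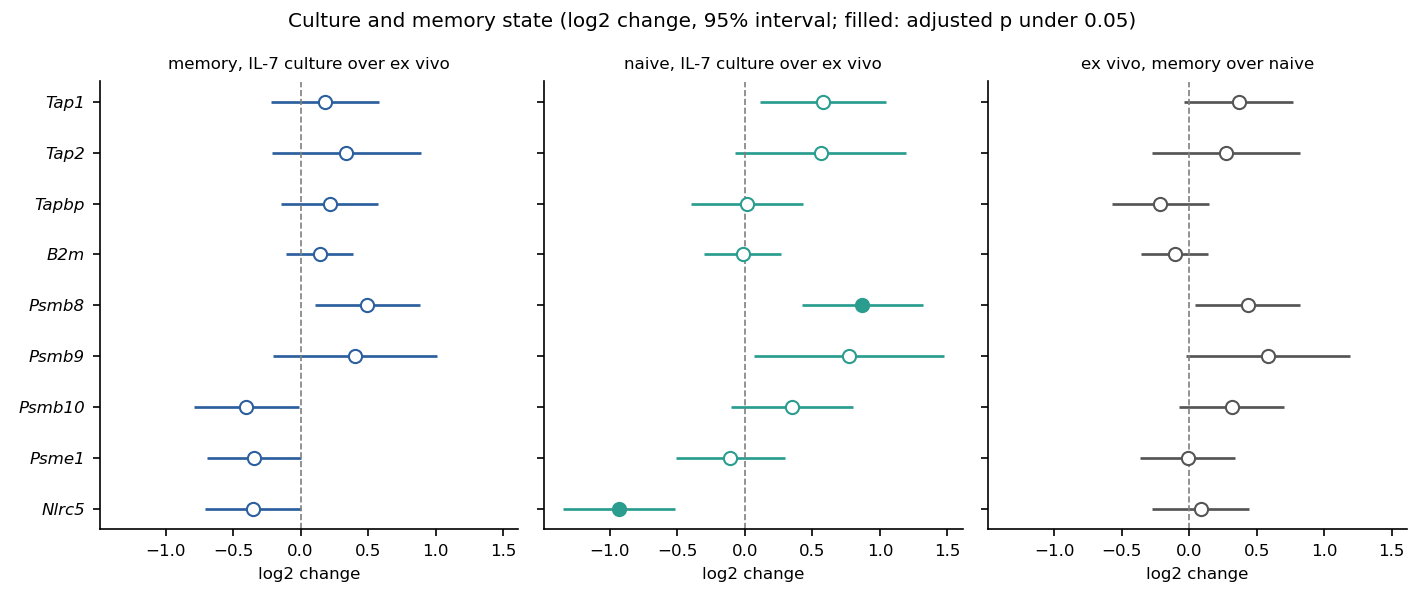
Log2 change (x axis; bars, 95% intervals) of the 9 genes in memory cells with IL-7 over ex vivo, naive cells with IL-7 over ex vivo, and memory over naive cells ex vivo. Filled points passed an adjusted p under 0.05: Psmb8 at 0.87 and Nlrc5 at -0.93 in the middle panel, and none in the others.

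Ex vivo, the immunoproteasome genes did not differ between memory and naive cells past the test. With limma, memory against naive cells ex vivo called 0 of 9 members (1.93% of all genes, 1.02% higher and 0.908% lower). Only 1 member, and 2370 of the 13770 genes tested, had an unadjusted p under 0.05. Psmb9 read 11.71, 11.28, 11.12 and 10.91 in memory cells, against 11.10 and 10.25 in naive cells (0.58 ± 0.28, SE, adjusted p = 0.308). Psmb8 read 13.02, 12.74, 12.76 and 12.64, against 12.68 and 12.04 (0.43 ± 0.18, adjusted p = 0.242). Both genes' groups overlapped, and 2 members lay above and 1 below the naive arrays without overlap, against 18.4% and 14.3% of all genes. The log2 change was 0.37 for Tap1 (adjusted p = 0.327), 0.31 for Psmb10 (adjusted p = 0.385) and -0.21 for Tapbp (adjusted p = 0.521).

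On the same arrays Ifng had means of 12.03 in memory cells and 4.05 in naive cells (adjusted p = 8.87e-07). The naive mean lay under the filter value, against which Ifng was at least 250-fold higher in memory cells. H2-Q10 had means of 8.88 and 4.16 in memory and naive cells (adjusted p = 8.87e-07), the second close to the filter value, while Irf1 had a log2 change of 0.31 (adjusted p = 0.537). Psmb5, Psmb6 and Psmb7 had log2 changes of 0.07, 0.14 and -0.29, none past the test. The summed level of the red cell precursor markers was 8.04 to 11.5 on memory ex vivo arrays, against 5.88 to 6.33 on naive ex vivo arrays, carried by Alas2, with Hba-a1 under the filter value throughout. Its part in the comparison of memory with naive cells was not tested.

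The members did not vary as one block. Over the 18 arrays, which share the 8 groups, the highest correlations were between Psmb8 and Psmb9 (r = 0.93), between Tap1 and Tap2 (r = 0.92) and between Psmb10 and Psme1 (r = 0.84). The other extreme was Nlrc5, whose correlations with the other 8 members ran from -0.31 to 0.25, while the 28 pairs without Nlrc5 ran from 0.22 to 0.93. Once each group's mean was removed, the first 3 pairs kept r of 0.87, 0.72 and 0.64, and the deviations of Tap2 and Psme1 ran in opposite directions (r = -0.68). Arrays 1 and 2 of naive cells with both cytokines had much of this: Tap2 read 12.40 and 11.24 there, while Psme1 read 11.65 and 12.23, and Psmb9 10.98 and 11.92. Without these 2 arrays the within-group r of Tap2 and Psme1 was -0.19. That of Psmb8 and Psmb9 was then 0.90, that of Tap1 and Tap2 0.56 and that of Psmb10 and Psme1 0.59. With 2 arrays in a group, their deviations mirror each other.

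**Figure D5:**
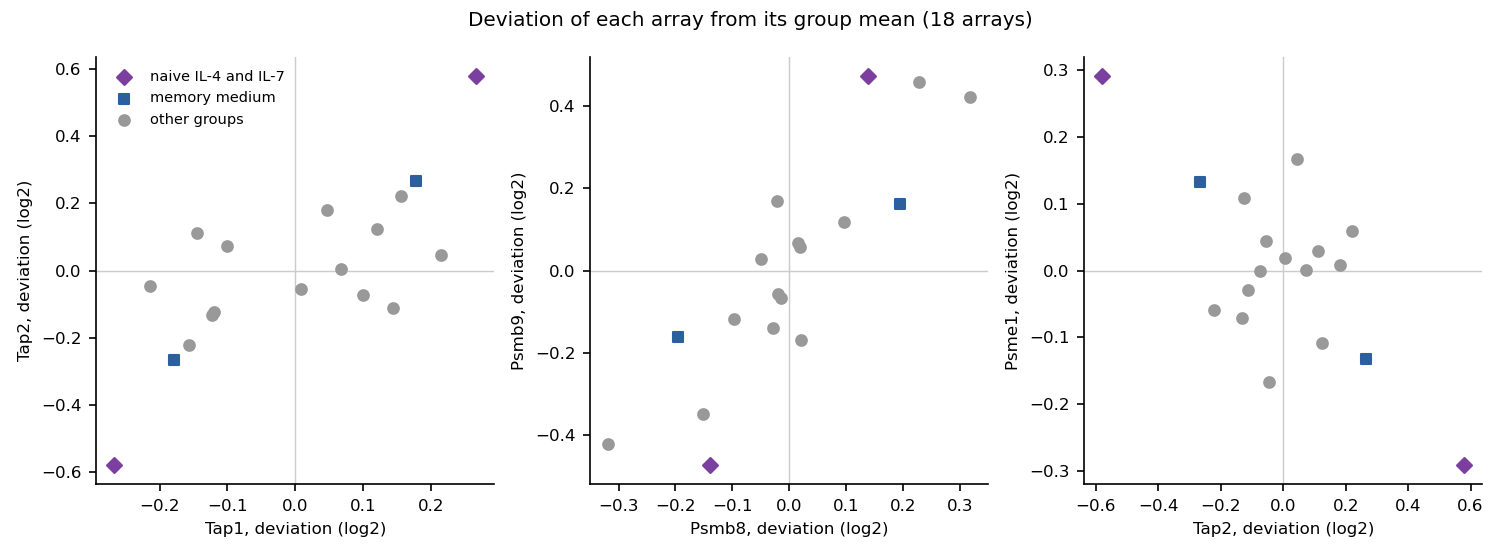
Deviation of each array from the mean of its group (both axes, log2) for Tap1 and Tap2, Psmb8 and Psmb9, and Tap2 and Psme1; each point is 1 of 18 arrays. The within-group correlations are 0.72, 0.87 and -0.68, and the 2 arrays of naive cells with both cytokines (diamonds) lie at opposite ends of the right panel; squares are memory cells in medium and circles the other groups.

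The genes outside the route whose pattern was most like the mean of the 9 standardised members over the 18 arrays were Gm4951 (r = 0.937), AW112010 (r = 0.937), Calhm6 (r = 0.936), Pros1 (r = 0.929), Xaf1 (r = 0.926) and Nsmce1 (r = 0.925). Their group means also rank the IL-4 groups first. Calhm6 had means of 12.09 in memory cells with both cytokines, 12.21 with IL-4 and 11.81 in naive cells with both cytokines, against 9.14 to 10.25 in the 5 groups without IL-4. Gm4951 had means of 8.13 and 8.21 in memory cells with both cytokines and with IL-4 and 4.90 in naive cells with both, against 3.27 to 3.92 in the others, all under the filter value. Likeness was measured as r over arrays that share groups, so it is a description only.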

How the data were processed

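RNA of 18 samples of sorted mouse CD8 T cells, of which 50 ng was amplified and labelled with biotin per the labels, was hybridised to Affymetrix arrays. The authors deposited log2 values, 1 for each of 45101 probe sets, and RMA and limma, without versions, are the tools in the submitters' processing notes. The depth of an array is not a count, so the number of arrays limits the precision. A probe set was used where the annotation gave it 1 gene symbol (34958), and the one with the highest mean stood for its gene (18194 genes). Tested were the 13770 genes that exceeded 4.06, the 40th percentile over all values, on 2 or more arrays. Group means of the 8 label groups were fitted over all 18 arrays with limma 3.58.1 in R 4.3.3 (10 residual and 4.13 prior degrees of freedom), with two-sided tests, Benjamini-Hochberg adjustment over all genes tested and an adjusted p under 0.05 as the threshold. The script was tested on simulated data.

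The genes, lists and tests were chosen with earlier results of these data known. All 10 genes of the route were to be named, with other genes of 8 lists where called, Psmb5, Psmb6, Psmb7 and Irf1 always, and the 6 genes most like the members. Of the 17 interferon signalling genes, 16 had a probe set of their own, and the other is not analysed here. Alternatives covered the filter, the probe set choice, centring, the variance model, array weights, the arrays in the fit, a replicate block and leaving out each array. Promoter sequences are RefSeq's.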

Additional observations from a re-analysis of the deposited data

Results flagged for a closer look

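The response to IL-4 of H2-Q2, a class Ib heavy chain gene, passed a test of its difference between cell types, on values that lie mostly under the filter value. Its fitted log2 change with IL-4 in the presence of IL-7, memory minus naive, was -2.28 ± 0.33 (SE, limma, adjusted p = 0.0154). Group means were 2.69 in memory cells with IL-4 and IL-7, against 2.57 with IL-7, and 5.34 in naive cells with both, against 2.93 with IL-7. Both naive arrays with IL-4 (5.33 and 5.34) lay above the filter value of 4.06, and the H2-Q2 means of the other 7 groups lay below it. H2-Q2 thus entered the test only through the group in which it was high, and its adjusted p is no independent support for a difference. With 3 of the 4 means under the filter value, the size of this difference cannot be read from the data. In the 4 memory ex vivo arrays, the only group large enough to test for an array set apart, none of the 9 MHC class I processing genes had one, and no response of theirs differed between cell types past the test.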

How the results depend on the processing

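Of 2430 recomputed changes of the 9 genes (27 alternatives, 10 comparisons), 2390 stayed on their side of the threshold, 24 newly passed it, 16 no longer did, and none called changed sign. Leaving out single arrays gave 0 to 3 members called for IL-4 in IL-7-treated memory cells (2 with all arrays), 0 to 2 for IL-4 against medium (0) and for IL-4 in naive cells (0), 0 to 1 for memory cells in IL-7 against ex vivo (0) and 0 to 2 for naive cells in IL-7 against ex vivo (2). For memory cells in IL-7 against ex vivo the count was 1 with each probe set tested, with the probe set of highest variance, with only the groups compared or with a variance trend (Psmb8), and 4 with array weights. For naive cells in IL-7 against ex vivo it was 1 with the probe set of highest variance or only the groups compared, and 3 with array weights (Tap1 added, 0.58, adjusted p = 0.0443). For IL-4 in IL-7-treated memory cells it was 3 with array weights or only the groups compared (Psme1 added). The cause was not tested. Same-numbered arrays did not all deviate together, and the labels give no shared source, so they were not treated as pairs. The correlations of their deviations ran from -0.18 to 0.51 and were over 0.1 in 31 of 56. That count holds the same value for array 1 and array 2 wherever both groups have 2 arrays. Between the groups compared for IL-4, the correlation was 0.51 in naive cells with IL-7. It was 0.25 in memory cells with IL-7 and 0.097 in memory cells without IL-7, so some pairing may be present. A replicate block left 1 member called for IL-4 in IL-7-treated memory cells (Psmb10), with Tap1 at 0.99 (adjusted p = 0.0662), and changed no other count of members.

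Counts over all genes moved more. For IL-4 in IL-7-treated memory cells they were 249, 1035 with only the groups compared, 998 with array weights, 412 over probe sets and 76 to 538 with an array left out. For IL-4 against medium they were 267, 9 with only the groups compared, 85 with weights and 73 to 2364, and for IL-4 in naive cells 173, 29, 113 and 50 to 672. Memory against naive ex vivo gave 266, 516 with weights and 112 to 605. Memory cells in IL-7 against ex vivo gave 2745, 1446 with the replicate block, 4769 over probe sets, 5092 with weights and 3 to 3707, and naive cells in IL-7 against ex vivo 1762, 2752, 3065 and 258 to 2772. IL-7 against medium (0 to 2250) and medium against ex vivo (0 to 2257) reached their highest count without medium array 1 for the first and medium array 2 for the second. The difference of IL-4 responses, memory minus naive, gave 10, 6 with the stricter filter, 2 with only the groups compared and 2 to 368, and that with and without IL-7 0 to 1298. With 2 arrays in most groups, the number of arrays limits the precision.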

Other observations

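Tap1, Tap2, Psmb8 and Psmb9 lie side by side on chromosome 17 within the MHC class II region, and some of the neighbouring genes, chosen after their values were seen, had larger log2 changes with IL-4. H2-DMa, which edits class II peptides, was higher with IL-4 by 3.19 (log2, limma, adjusted p = 2.15e-07) in memory cells with IL-7, 2.85 (adjusted p = 7.87e-07) without IL-7 and 2.59 (adjusted p = 1.75e-06) in naive cells. H2-Ob, a subunit of the inhibitor of that editor and the next gene after Tap2 in the annotation, fell by 2.97 (adjusted p = 2.68e-05) in the first, and the corresponding log2 changes were -2.98 (adjusted p = 1.73e-05) and -1.76 (adjusted p = 0.00252). H2-DMb2, between H2-DMa and Psmb9, was higher in naive cells with IL-4, at group means of 6.25 with both cytokines against 4.85 with IL-7 (adjusted p = 0.00252), and was not called in memory cells (0.27, adjusted p = 0.589, with IL-7 and 0.56, adjusted p = 0.235, without). Farther out, H2-Ab1, H2-Aa and H2-Eb1, the class II chains themselves, were not called in any of the 3 comparisons. Rxrb, at the other end of this stretch, had log2 changes of 0.22, 0.12 and 0.00, none past the test.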
